A study of Mus musculus with 6 samples.

Results

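The 10 genes described here encode enzymes of glycolysis: the hexokinases Hk1 and Hk2, glucose-6-phosphate isomerase Gpi1, the phosphofructokinase subunits Pfkl and Pfkp, aldolase Aldoa, phosphoglycerate kinase Pgk1, enolase Eno1, pyruvate kinase Pkm and the lactate dehydrogenase subunit Ldha. They were taken by symbol from the 38926 gene symbols of each count list, and 10 of 10 were found and passed the filter on low counts that left 13646 genes for testing. The series asks how loss of Dpy30, a core subunit of the SET1/MLL enzymes that methylate lysine 4 of histone H3, changes gene expression in blood stem cells of the mouse fetal liver. Control embryos were Vav-Cre; Dpy30F/+ and knockout embryos were Vav-Cre; Dpy30F/-, both at stage E14.5 of embryonic life, with 3 samples a group and 1 sample of each group from each of 3 litters. Both groups therefore carry the Vav-Cre transgene, which acts in blood and endothelial cells, and the controls have a single Dpy30 allele left wherever Cre has recombined. The cells were sorted by stem cell surface markers, and the number of embryos behind each sample is not stated.

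Glycolysis splits glucose into pyruvate and yields ATP without oxygen, and lactate dehydrogenase then turns pyruvate into lactate while restoring the cofactor that the pathway needs. Several steps can be run by more than 1 isozyme, encoded by separate genes that differ in tissue and regulation. Stem cells of the blood are known for a strong reliance on glycolysis in the adult marrow. Many of these genes are known targets of the hypoxia factor HIF-1 and of MYC. Both bind DNA at motifs that can hold the letters ACGTG.

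The promoters are shown because this motif is the feature that the enzyme genes are best known to share. RefSeq promoter sequences (GRCm38.p6) were matched for 10 of the 10 genes, with 17 annotated starts. ACGTG was read on both strands, with overlapping matches such as CACGTG counted once. It lay in the 250 bases before 6 of the 17 starts, which belong to 5 of the 10 genes. The Aldoa windows at 126799255 to 126799504 and at 126799179 to 126799428 overlap and hold the same match, which is therefore counted at both starts. Of all 32851 promoters read, 16.6% held the motif. The motif contains the pair CG, and the member windows with a match had 6.8 to 10 CG pairs per 100 bases. The median over all promoters was 2.4, and the share was not compared with promoters of like CG content. Pkm had 1 match before the downstream of its 2 starts, in a window that overlaps annotated exons. The windows with a match that touch no annotated exon are those of Ldha, Pgk1, Hk2 and Aldoa, printed here 5′ to 3′ in the gene's direction with each match in capitals (ACGTG, its reverse complement CACGT, or CACGTG where both overlap).
Ldha, chr7:46845554-46845803, plus strand: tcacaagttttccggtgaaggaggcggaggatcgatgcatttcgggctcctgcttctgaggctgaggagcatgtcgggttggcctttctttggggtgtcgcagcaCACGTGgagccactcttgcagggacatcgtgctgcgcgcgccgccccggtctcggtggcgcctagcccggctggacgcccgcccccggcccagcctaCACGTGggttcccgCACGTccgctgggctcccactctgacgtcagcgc
Pgk1, chrX:106186850-106187099, plus strand: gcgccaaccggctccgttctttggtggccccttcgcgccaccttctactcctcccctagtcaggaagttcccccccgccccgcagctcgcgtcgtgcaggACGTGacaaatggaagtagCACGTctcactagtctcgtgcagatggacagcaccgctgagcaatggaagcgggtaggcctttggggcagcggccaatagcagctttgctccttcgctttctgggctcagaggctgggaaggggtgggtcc
Hk2, chr6:82774455-82774704, minus strand: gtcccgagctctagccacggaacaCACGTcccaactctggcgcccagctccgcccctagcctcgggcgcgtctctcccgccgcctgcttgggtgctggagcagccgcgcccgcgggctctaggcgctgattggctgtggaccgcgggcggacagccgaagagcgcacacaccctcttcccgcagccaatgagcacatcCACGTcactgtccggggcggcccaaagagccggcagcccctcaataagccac
Aldoa, chr7:126799255-126799504, minus strand: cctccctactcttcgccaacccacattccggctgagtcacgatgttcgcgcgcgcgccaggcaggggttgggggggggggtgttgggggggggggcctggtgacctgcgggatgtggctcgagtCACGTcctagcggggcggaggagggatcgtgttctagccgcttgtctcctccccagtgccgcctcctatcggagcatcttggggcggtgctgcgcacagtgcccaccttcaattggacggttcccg
The Ldha window held 3 matches, those of Pgk1 and Hk2 held 2 each, and that of Aldoa held 1. A match is a stretch of letters and was not tested for binding. Other forms of the motifs were not read, so a window without a match may still hold one.

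Between 31897737 and 43394700 reads per library were assigned to genes, and mitochondrial genes took 49.2% to 67.7% of them. Levels are given in CPM, counts scaled to 1000000 per library after correction for library composition by trimmed mean of M values (TMM). Dpy30 lay at 24.6, 24.2 and 31.6 CPM in controls 1 to 3 and at 7.93, 5.95 and 13.7 CPM in knockouts 1 to 3, so the libraries follow their labels. Knockout 3 stood apart in its markers. The summed level of 13 stem cell markers was 561 CPM there and 846 to 1205 CPM in the other 5 libraries, and it was the highest library for 25.6% and the lowest for 29.1% of all tested genes. The summed level of 12 macrophage markers was 362 to 597 CPM in controls and 888, 369 and 1765 CPM in knockouts 1 to 3, and none of the 12 was at 0 in every library. Of the 12, 10 had a positive log2 fold change, and 8 were higher in all 3 litters, beside 12.3% of all genes. The groups did not overlap for 5, all higher, beside 6.39% of all genes. DESeq2 called 3 (Csf1r, C1qb and Lyz2) higher, beside 1.01% of all genes called in either direction. The sum of 369 CPM in knockout 2 holds a low Mrc1 (26.4 CPM, against 180 to 359 CPM in controls) and Vcam1, and the other 10 markers summed to 160 to 189 CPM in controls and to 528, 339.9 and 1361 CPM in the knockouts, a split made after the values were seen. Granulocyte markers summed to 403 CPM in knockout 3 and to at most 148 CPM elsewhere, and 9 erythroid markers to 876 to 1512 CPM in controls and 438 to 1296 CPM in knockouts. The labels name no separate cultures or animals beyond the litters, and p-values measure the spread between these samples. In bulk RNA, fewer cells of a type and less RNA per cell cannot be told apart.

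The glycolytic enzymes did not share a direction between the genotypes. Pkm was 1.51-fold higher in the knockouts, with every knockout above every control, and the fold changes of the other 9 genes were 0.809 (Hk2) to 1.39 (Pfkp), each with overlapping groups. None of the 10 passed the threshold of 0.05 on the adjusted p in edgeR's quasi-likelihood test (0 of 10, beside 0.0% of all 13646 genes) or in DESeq2 (0 of 10, beside 1.01% of all genes). At an unadjusted p under 0.05 in edgeR, 1 of the 10 was found, Pkm, beside 6.51% of all genes (4.26% higher and 2.24% lower in the knockouts). Groups did not overlap for 1 of the 10, beside 14.1% of all genes (6.39% higher and 7.74% lower), so the share of members that stand apart is near the background. The log2 fold changes were positive for 6 and negative for 4, with a median of 0.09 beside 0.01 over all genes. Under upper-quartile scaling the members' median turned to -0.04, and the median of all genes moved by -0.12. With scaling by library size alone the medians were 0.29 and 0.23, a shift of 0.20 for all genes.

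**Figure D1:**
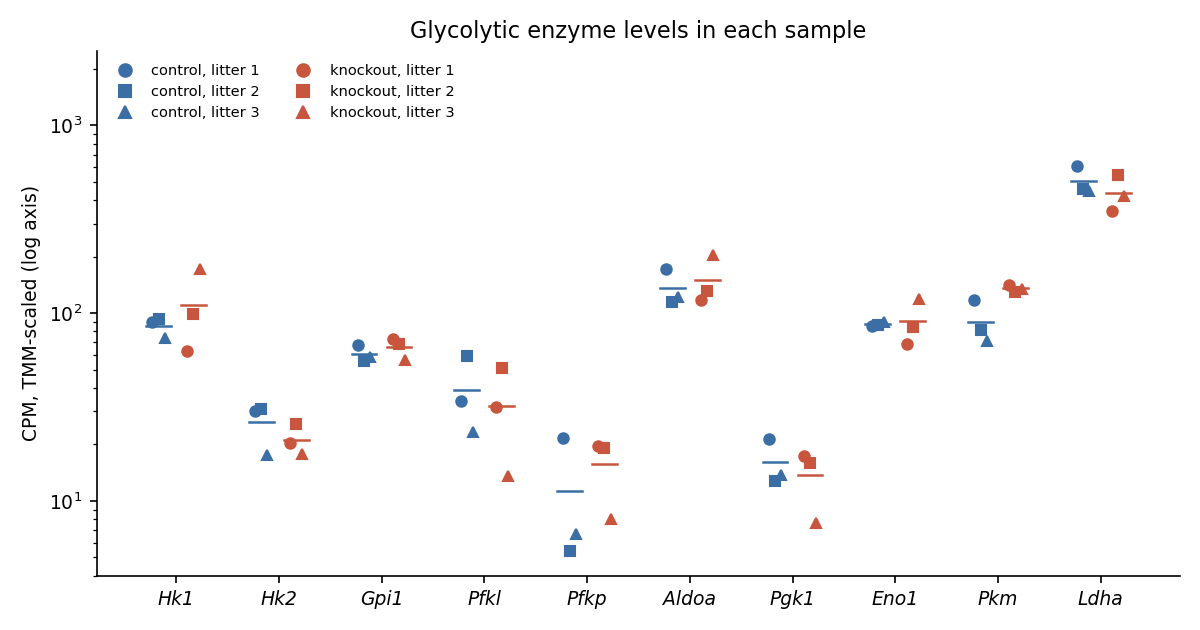
Level of each of the 10 glycolytic enzyme genes in CPM (log axis) in 3 control and 3 knockout samples, with marker shapes for the litter and a bar for the group mean. The 3 knockout points of Pkm lie above its 3 control points, and the groups overlap for the other 9 genes.

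The order of levels can be read only per length, here as CPM per kb of the longest annotated coding transcript. Ldha had the highest level of the 10, 278 ± 49.1 CPM per kb in controls against 241 ± 54.4 for the knockouts (SD, n = 3 each). Aldoa followed with 87.8 ± 19.8 in controls, and the gap between it and Ldha exceeded the spread of both. Eno1 (43.2 ± 1.08) and Pkm (37.0 ± 10.003) did not differ in controls beyond their spread, nor did Gpi1 (21.0 ± 2.11) and Hk1 (20.0 ± 2.43). Pfkl (10.4 ± 4.95) and Pgk1 (8.79 ± 2.60) were also within their spread of each other, and Hk2 (4.76 ± 1.35) and Pfkp (2.71 ± 2.175) were lowest. In knockouts Pkm, at 55.8 ± 2.37 CPM per kb, had a higher mean than Eno1 at 44.8 ± 12.9, a gap within the spread of Eno1.

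These levels depend on how much of a transcript can be read uniquely, since reads with more than 1 alignment were tallied apart from genes. Of the 50-base windows of the longest coding transcript, 72.2% in Eno1 and 68.0% in Pgk1 also occur in transcripts of other annotated genes, mostly pseudogenes. The share was 34.4% in Pkm, 25.3% in Gpi1, 17.1% in Pfkp, 16.6% in Ldha and 13.5% in Aldoa. In Gpi1 only 2 of the 122 other genes were pseudogenes, and in Pfkp the 1 other gene was Pitrm1, which is not a pseudogene. A window shared between overlapping gene models can still align once, and this was not told apart here. It was at most 2.55% in Hk1, Hk2 and Pfkl. The levels of Eno1 and Pgk1 are therefore uncertain, and their place in the order with them.

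Glucose enters the pathway at the hexokinase step, where Hk1 is the widespread form and Hk2 the inducible one. Hk1 (ENSMUSG00000037012.18; chromosome 10, 62268855 to 62379908, minus strand, GRCm38) lay at 89.4, 93.4 and 73.7 CPM in controls 1 to 3 and at 62.8, 98.8 and 171 CPM in knockouts 1 to 3. Knockout 3 was the highest of the 6 samples and knockout 1 the lowest, so the groups overlapped. Its log2 fold change came to 0.38 (SE 0.36; edgeR adjusted p = 0.901), and it was -0.07 without knockout 3. Hk2 (ENSMUSG00000000628.10; chromosome 6, 82725025 to 82774454, minus strand) lay at 30.3, 30.7 and 17.6 CPM in controls and at 20.3, 25.7 and 17.7 CPM in knockouts. Control 3 and knockout 3, which share a litter, were the low pair (log2 change -0.31, SE 0.39; edgeR adjusted p = 0.932).

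Set against each other inside each library, the isozymes of this step gave ratios that overlapped between the genotypes. The log2 ratio of Hk2 to Hk1 counts was -1.56, -1.60 and -2.07 in controls and -1.63, -1.94 and -3.28 in knockouts. The difference of the means was -0.54 (exact permutation p = 0.5, two-sided, where 0.1 is the smallest p that 3 against 3 allows; 0.5 when adjusted over the 3 isozyme ratios tested). Without knockout 3 it was -0.05. Inside litters 1 to 3 the knockout ratio was below that of its control, by log2 differences of -0.07, -0.34 and -1.21. Flipping signs by litter gave an exact p of 0.25, the smallest that 3 pairs allow. Per length, Hk1 made up 72.7% to 92.3% of hexokinase RNA across the 6 libraries. Hk3, a form of myeloid cells, was at 5.96 CPM in knockout 1 and below 1 CPM in the other 5 libraries, which put its share of the step at 9.16% in that library.

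Gpi1, which turns glucose-6-phosphate into fructose-6-phosphate, was the most even member across the 6 samples. It (ENSMUSG00000036427.5; chromosome 7, 34201330 to 34230336, minus strand) lay at 67.4, 55.8 and 58.4 CPM in controls and at 72.8, 68.7 and 56.1 CPM in knockouts, a span of 1.30-fold from the lowest to the highest sample. The fitted log2 change, 0.12 (SE 0.24; edgeR adjusted p = 0.964), was smaller than its error.

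Phosphofructokinase, the main control point of the pathway, is a tetramer that can be built of the liver (Pfkl), platelet (Pfkp) and muscle (Pfkm) subunits. Pfkl (ENSMUSG00000020277.10; chromosome 10, 77986947 to 78010083, minus strand) lay at 34.3, 59.3 and 23.3 CPM in controls and at 31.6, 51.2 and 13.5 CPM in knockouts. Litter 2 was the highest and litter 3 the lowest in both groups, an order that was not tested. The knockout was below its control in all 3 litters, by log2 differences of -0.12, -0.21 and -0.78. Over all genes 15.9% were lower in all 3 litters. Over the group means the log2 difference came to -0.28 (SE 0.54; edgeR adjusted p = 0.963), and it turned to 0.10 without knockout 3 and to 0.17 without control 2.

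Pfkp (ENSMUSG00000021196.14; chromosome 13, 6579768 to 6648777, minus strand) lay at 21.6, 5.43 and 6.65 CPM in controls and at 19.7, 19.2 and 7.997 CPM in knockouts. Its levels fell into a high set of control 1 and knockouts 1 and 2, and a low set of the other 3 libraries (log2 fold change 0.48, SE 0.68; edgeR adjusted p = 0.938). When 1 library was left out it was 0.15 (without control 2) to 1.37 (without control 1). Pfkm was no steadier, with 29.1, 11.7 and 15.8 CPM in controls and 6.69, 18.4 and 2.06 CPM in knockouts (log2 fold change -1.06, SE 0.79; edgeR adjusted p = 0.868), and leaving out 1 library gave -2.11 (without knockout 2) to -0.58 (without knockout 3).

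The share of Pfkl in the phosphofructokinase pool varied more among the controls than among the knockouts. Per length, Pfkl was 37.5%, 74.7% and 46.8% of the pool in the controls, in order of litter, and 54.5%, 55.4% and 57.8% in the knockouts. The share of Pfkp was 13.2% ± 7.63 in controls and 26.7% ± 6.89 in knockouts, and that of Pfkm was 33.8% ± 12.8 and 17.4% ± 7.52 (SD over 3 libraries), with overlapping groups in each case. The log2 ratio of Pfkp to Pfkl counts was -0.66, -3.45 and -1.81 in controls and -0.68, -1.41 and -0.76 in knockouts, a difference of 1.02 (exact permutation p = 0.4; 0.5 adjusted over the 3 ratios). Leaving out control 2, the library with the lowest ratio, brought the difference to 0.29.

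**Figure D2:**
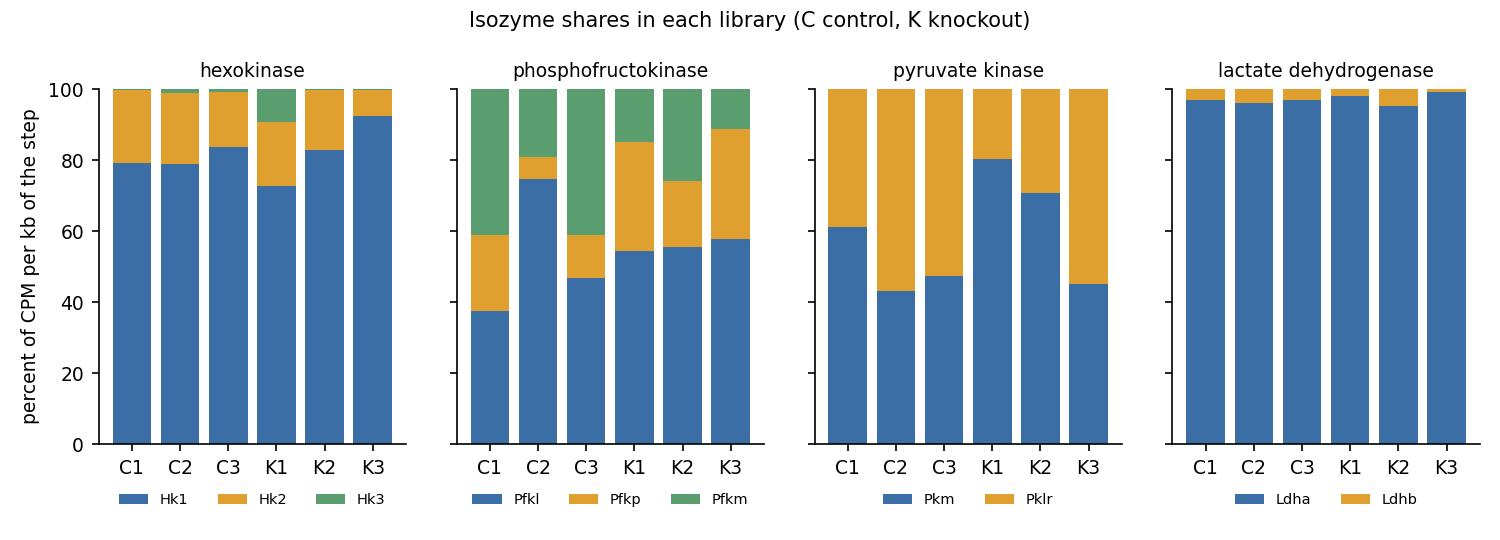
Share of each isozyme in the RNA of its step, in percent of the step's CPM per kb, in each control (C1 to C3) and knockout (K1 to K3) library. Hk1 and Ldha dominate their steps in every library, while the phosphofructokinase and pyruvate kinase pools differ between libraries of the same genotype.

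Aldolase splits the 6-carbon sugar into triose phosphates. Aldoa (ENSMUSG00000030695.16; chromosome 7, 126795234 to 126800751, minus strand) lay at 171, 114 and 122 CPM in controls and at 117, 131 and 205 CPM in knockouts. Control 1 and knockout 3 were high and the other 4 were close together. The fitted log2 change of Aldoa was 0.15 (SE 0.29; edgeR adjusted p = 0.962), and it was -0.12 without knockout 3. Aldoa made up at least 98.7% of Aldoa and Aldoc RNA per length in each library.

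Pgk1, which makes the first ATP of the pathway, had a low level beside most other members. It (ENSMUSG00000062070.12; chromosome X, 106187100 to 106203699, plus strand) lay at 21.5, 12.8 and 13.8 CPM in controls and at 17.5, 15.9 and 7.63 CPM in knockouts. Knockout 3 was the lowest sample and control 1 the highest. The log2 fold change of -0.23 (SE 0.51; edgeR adjusted p = 0.967) turned to 0.07 without knockout 3, to 0.04 without control 1 and to 0.06 with scaling by library size alone.

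Eno1, which forms phosphoenolpyruvate, had the narrowest spread of the 10 in controls. It (ENSMUSG00000063524.13; chromosome 4, 150236721 to 150248879, plus strand) lay at 86.0, 86.6 and 90.02 CPM there and at 68.5, 84.4 and 119.7 CPM in knockouts. The knockouts lay on both sides of the controls, and their SD of log2 CPM was 0.41 against 0.04 for the controls. The fitted log2 change of Eno1 was 0.05 (SE 0.26; edgeR adjusted p = 0.990), and it was -0.18 without knockout 3 and -0.09 under upper-quartile scaling. Eno1b, a near copy of Eno1 listed under an older symbol, was at 0.612 to 1.43 CPM, and Eno2 and Eno3 were at most 1.62 CPM.

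Pkm makes pyruvate and the last ATP of the pathway, and is spliced into the M1 and M2 forms, which counts per gene do not separate. It (ENSMUSG00000032294.17; chromosome 9, 59656368 to 59679375, plus strand) lay at 117, 81.7 and 70.9 CPM in controls 1 to 3 and at 142, 130.5 and 135 CPM in knockouts 1 to 3. The lowest knockout exceeded the highest control, and the knockouts differed little among themselves. The means were 89.99 ± 24.3 CPM for the controls and 136 ± 5.76 CPM for the knockouts (SD, n = 3 each), and the fitted log2 change was 0.59 (SE 0.25; edgeR adjusted p = 0.759, DESeq2 adjusted p = 0.493). The knockout was higher in all 3 litters, by 0.27, 0.68 and 0.93 on the log2 scale, as for 12.3% of all genes. Over the 14 alternatives run the log2 fold change was 0.45 to 0.85, with adjusted p values of 0.389 to 1.00. The difference did not pass correction over all genes in any of them.

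The macrophage markers had a median log2 difference of 1.95, of the same sign as Pkm, and their part in the Pkm difference was not tested. Counted by library, 9, 6 and 11 of the 12 markers lay above every control in knockouts 1 to 3. The numbers below every control were 0, 2 and 0, and the shares over all genes were not counted for these. Pkm lay above every control in each knockout. Control 1 had the highest Pkm of the controls (117 CPM) and the lowest marker sum (362 CPM). Among knockouts both were lowest in knockout 2, while Pkm was highest in knockout 1 and the marker sum in knockout 3. These orders rest on 3 libraries a group and were not tested. Without knockout 3, where the stem cell markers were low, the log2 fold change of Pkm was 0.61.

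Pklr, the pyruvate kinase of liver and red cells, did not differ per length from Pkm in the controls beyond their spread, with 35.8 ± 7.42 CPM per kb against 37.0 ± 10.003 (SD, n = 3 each). It lay at 89.1, 129 and 94.1 CPM in controls and at 41.4, 64.4 and 195 CPM in knockouts. Knockouts 1 and 2 were below every control and knockout 3 above, and the fitted log2 change was -0.05 (SE 0.53; edgeR adjusted p = 0.994), of the other sign, 0.07, with scaling by library size alone. The share of Pkm in pyruvate kinase RNA per length was 61.1%, 43.1% and 47.3% in controls and 80.3%, 70.7% and 45.2% in knockouts. Erythroid markers, which summed to 438 and 666 CPM in knockouts 1 and 2 and to 1296 CPM in knockout 3, had the same order among the knockouts as Pklr, and their part was not tested.

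Ldha, which makes the subunit that favours lactate formation, was the most abundant member. It (ENSMUSG00000063229.15; chromosome 7, 46841475 to 46855627, plus strand) lay at 608, 457 and 449.9 CPM in controls and at 349, 544 and 422 CPM in knockouts. The groups overlapped, with control 1 highest and knockout 1 lowest, although these came from the same litter. The fitted log2 change of Ldha was -0.20 (SE 0.23; edgeR adjusted p = 0.922) and 0.01 with scaling by library size alone. Leaving out 1 library gave -0.39 (without knockout 2) to -0.05 (without control 1). Ldhb, the other subunit, was at 14.503, 13.7 and 10.4 CPM in controls and at 5.13, 19.0 and 2.86 CPM in knockouts. The log2 ratio of Ldhb to Ldha counts was -5.39, -5.05 and -5.43 in controls and -6.08, -4.84 and -7.20 in knockouts, a difference of -0.75 (exact permutation p = 0.4; 0.5 adjusted over the 3 ratios). The knockouts lay on both sides of the controls. Ldha made up at least 95.4% of both subunits' RNA per length in each library.

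**Figure D3:**
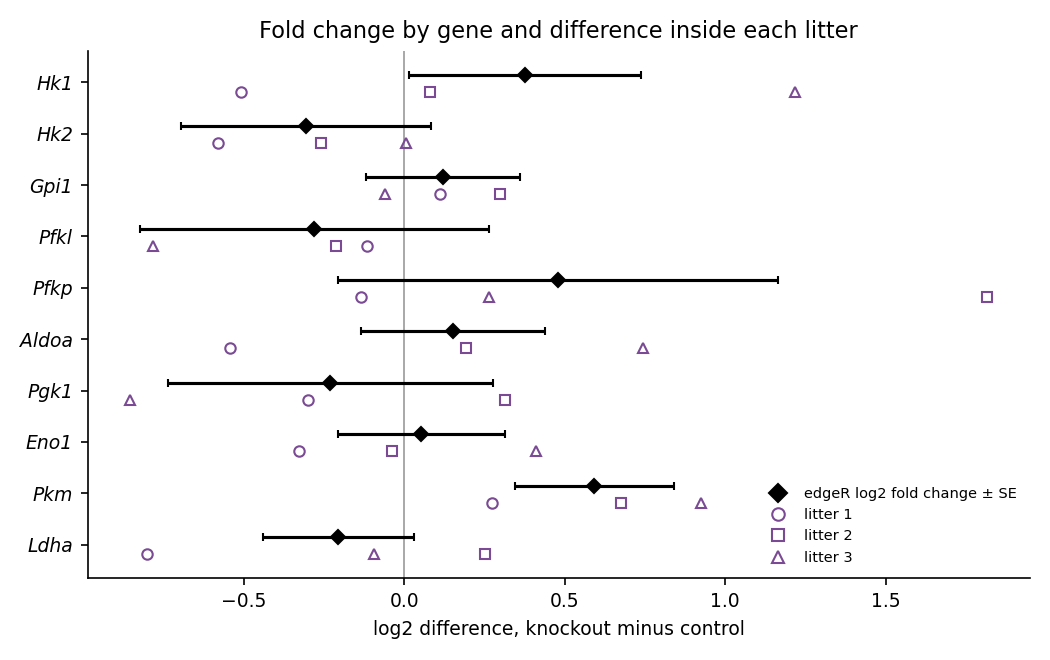
edgeR log2 fold change with its SE (diamonds) and the knockout minus control difference of log2 CPM inside each litter (open symbols) for the 10 genes. Pkm is positive in 3 of 3 litters and Pfkl negative in 3 of 3, and the other 8 genes change sign between litters.

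The sign of the difference was shared by all 3 litters for 2 of the 10 genes, beside 28.2% of all genes. The 10 genes together summed to 1247, 997 and 927 CPM in controls and to 901, 1169 and 1155 CPM in knockouts. Knockout 3 was the highest library for 3 of the 10 (Hk1, Aldoa and Eno1), beside 25.6% of all genes. It was the lowest for 2 of the 10 (Pfkl and Pgk1), beside 29.1% of all genes, so both counts are near the background. The spread of log2 CPM was larger among knockouts than among controls for 7 of the 10, beside 75.2% of all genes. Its median over the 10 was 0.34 in controls and 0.42 in knockouts, below the 0.49 and 0.89 over all genes. Without knockout 3 the groups did not overlap for 3 of the 10 (Gpi1, Eno1 and Pkm), beside 25.0% of all genes.

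The other 18 listed enzymes of the same steps included none that passed the threshold in edgeR or DESeq2, and none with an edgeR unadjusted p under 0.05. Of these 18, 13 passed the count filter, with 5 positive and 8 negative log2 fold changes and a median of -0.40. Tpi1, which interconverts the triose phosphates, lay at 84.1, 70.1 and 78.9 CPM in controls and at 50.7, 75.0 and 50.8 CPM in knockouts, with knockout 2 inside the control range (log2 fold change -0.40, SE 0.26; edgeR adjusted p = 0.846). Gapdh, the next enzyme, was at only 2.08 to 12.5 CPM. Of its 50-base windows 82.5% occur in transcripts of 222 other annotated genes, so its level is uncertain. Pgam1, a mutase with 41.5% of windows shared, was at 1.32 to 3.996 CPM. Eno3, the muscle enolase, was the 1 of the 13 whose groups did not overlap, beside 14.1% of all genes, at 1.62, 1.15 and 1.18 CPM in controls and 1.06, 0.496 and 0 CPM in knockouts. Aldoc, Gapdhs and Pgam2 had at most 3.90 CPM in any library. Eno2 and Ldhc were below the count filter, and Hkdc1 and Pgk2 had 0 counts in all 6 libraries.

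Among genes that steer flux through the pathway, Bpgm was higher in each knockout than in any control. Of 17 listed regulators of glycolytic flux 15 were tested, none passed the threshold in edgeR or DESeq2, and the groups did not overlap for 3, beside 14.1% of all genes. Bpgm encodes the enzyme that diverts a glycolytic intermediate into 2,3-bisphosphoglycerate and is known from red cells. It lay at 13.9, 26.6 and 33.8 CPM in controls and at 48.7, 46.9 and 95.5 CPM in knockouts. Every knockout exceeded every control, with a mean of 24.8 ± 10.1 CPM for the controls and 63.7 ± 27.6 CPM for the knockouts (SD, n = 3 each; log2 fold change 1.36, SE 0.44; edgeR adjusted p = 0.709, DESeq2 adjusted p = 0.165). A DESeq2 fit with a term for litter, which was chosen once the data were known, gave Bpgm an adjusted p of 0.0399. That fit called 2.03% of all genes and 0 of the 10 glycolytic enzymes. The 9 erythroid markers were mixed, with 4 positive and 5 negative log2 fold changes. They summed to 876 to 1512 CPM in controls and to 438, 666 and 1296 CPM in knockouts 1 to 3. Their part in the Bpgm difference was not tested.

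Pdha1, a subunit of the pyruvate dehydrogenase complex that feeds pyruvate into the citric acid cycle of mitochondria, lay at 41.6, 38.5 and 38.8 CPM in controls and at 25.7, 38.1 and 19.4 CPM in knockouts. Knockout 2 was just under the lowest control (log2 fold change -0.51, SE 0.34; edgeR adjusted p = 0.855). Pdk4, a kinase that switches this complex off, had 89, 214 and 186 counts in controls and 83, 0 and 0 counts in knockouts (edgeR adjusted p = 0.868; adjusted p = 0.00761 in DESeq2 with the litter term). With 0 counts in 2 of 3 knockouts, the fitted size of its change is uncertain.

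Transport and the pentose phosphate branch showed no gene with groups apart. Of 9 listed transport genes 7 were tested and 0 of them were called by edgeR or DESeq2 or had an edgeR unadjusted p under 0.05, and the same counts were 8, 8 and 0 for the pentose phosphate pathway. Median log2 fold changes were -0.17 and -0.02. For 9 transcription factors known to act on glycolytic genes, Hif1a and Myc among them, the median was 0.22, with 0 genes called by either tool or at an edgeR unadjusted p under 0.05. The DESeq2 fit with the litter term called 1 of these 9, beside 2.03% of all genes. It was Ppargc1a, a coactivator of mitochondrial genes, named here after its values were seen. It had 37, 163 and 104 counts in controls and 90, 0 and 0 counts in knockouts (adjusted p = 0.0427 in that DESeq2 fit, edgeR adjusted p = 0.921). The groups overlapped, and in litter 1 the knockout was higher (log2 difference 0.80). As for Pdk4, the 0 counts leave the fitted size of its change uncertain.

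Of 15 tested genes of the HIF pathway outside glycolysis, 7 had positive and 8 negative log2 fold changes. None passed the threshold in edgeR or DESeq2, and 1 had an edgeR unadjusted p under 0.05. The groups did not overlap for 3, beside 14.1% of all genes. All 3 were lower in the knockouts, the direction of 7.74% of all genes. P4ha2 and Ankrd37 among them were near the floor, at most 1.44 and 1.88 CPM in any library. Vegfa, the vascular growth factor, lay at 10.9, 4.71 and 8.89 CPM in controls and at 2.14, 1.68 and 3.40 CPM in knockouts. Its lowest control exceeded its highest knockout, and the fitted log2 change was -1.76 (SE 0.78; edgeR adjusted p = 0.773). P4ha2, a collagen prolyl hydroxylase, had 33, 54 and 42 counts in controls and 7, 3 and 0 counts in knockouts (edgeR adjusted p = 0.753). Ankrd37 had 11, 20 and 83 counts in controls and 15, 2 and 6 counts in knockouts (edgeR adjusted p = 0.830), with knockout 1 and control 1 nearly level in CPM. The DESeq2 fit with the litter term called 1 of the 15, beside 2.03% of all genes. It was Ddit4, an inhibitor of mTORC1 signalling, which was likewise named after its values were seen. It lay at 3.32, 0.187 and 3.20 CPM in controls and at 6.74, 1.38 and 49.9 CPM in knockouts, higher in all 3 litters and highest in knockout 3 (adjusted p = 0.0407 in that DESeq2 fit, edgeR adjusted p = 0.775).

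**Figure D4:**
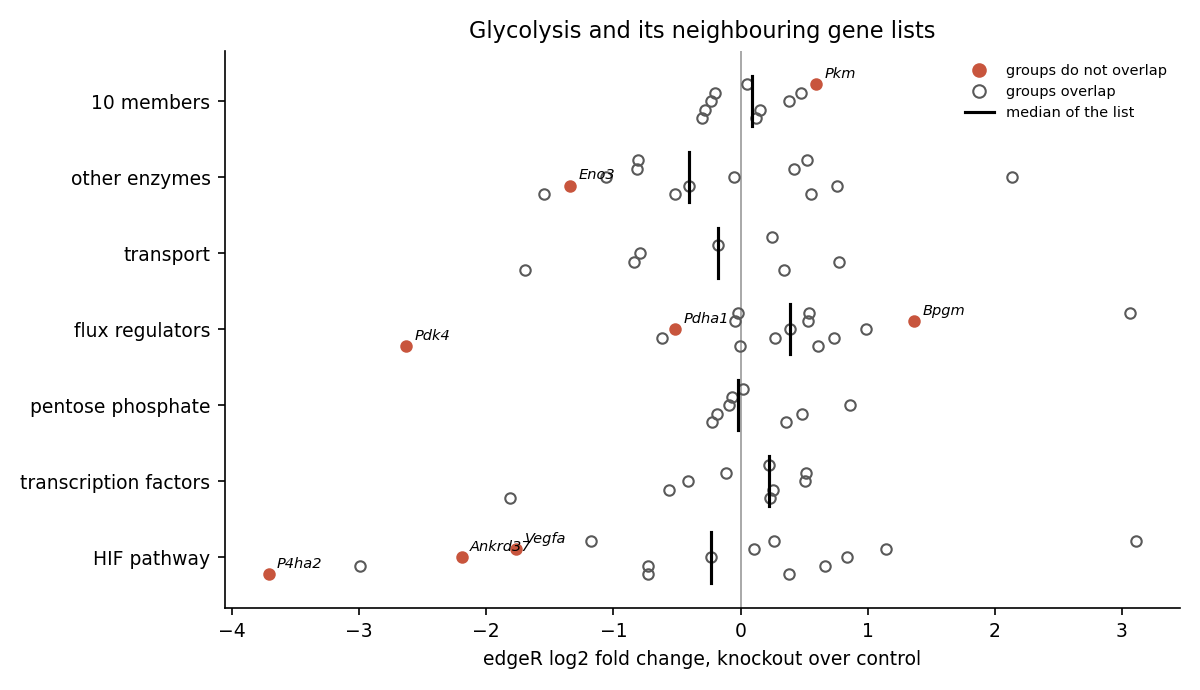
edgeR log2 fold change (knockout over control) of each tested gene in 7 lists, with filled points where the 3 knockouts and 3 controls do not overlap and a bar at the median of each list. Pkm is the 1 filled point among the 10 glycolytic enzymes, and no list has all of its genes on 1 side of 0.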

How the data were processed

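The authors deposited whole-number read counts per gene symbol for each of the 6 libraries, not normalized and with replicates kept apart. Per the submitters' processing notes, CASAVA 1.8.4, TopHat2, Picard 1.126, HTSeq 0.6.0, DESeq 3.0 and bedtools 2.17.0 were used with build mm10, and the annotation and strand setting are not given in the sources used here. The 5 tally rows for reads given to no gene (41.0% to 51.0% of reads) were left out. The labels mention no unique molecular identifiers, and whether PCR duplicates were removed is not stated there.

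Counts were filtered with edgeR's filterByExpr, scaled by TMM and tested by edgeR's quasi-likelihood F test between genotypes (edgeR 4.0.16, R 4.3.3), with Benjamini-Hochberg adjustment over 13646 genes and a threshold of 0.05. The SE was taken as the absolute estimate divided by the root of its F value. DESeq2 1.42.0 served as an alternative. The procedure was run on simulated data. The only check it had to pass there was at a smaller spread between samples than in these data (common biological coefficient of variation 0.817). That check therefore does not show how many changes would be recovered here. Isozyme ratios are log2 of counts plus 0.5, tested by an exact permutation test. Coordinates and transcript lengths are from GENCODE M21 (GRCm38, the assembly of mm10). Of the listed genes, 5 were found under an older symbol.

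The labels state that the replicate number is the litter, which pairs the samples. The correlation of deviations from the genotype means was -0.02, -0.08 and 0.00 in litters 1 to 3. The labels do not say how many embryos made up a sample. Gene names follow a rule: the 10 members, each detected enzyme of the same steps (some items are not reported here), and up to 4 genes of each neighbouring list with an edgeR unadjusted p under 0.05 or with groups that do not overlap. The members and lists were chosen with earlier results of these data known.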

Additional observations from a re-analysis of the deposited data

How the results depend on the processing

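None of the 10 enzymes passed the threshold under any of the 14 alternatives, and the direction of 4 (Hk2, Gpi1, Pfkp and Pkm) held under each of them. The count of all genes past the threshold was 0 in edgeR, 1 without a filter on low counts, 1 with at least 10 counts in every sample, 138 in DESeq2 and 277 in DESeq2 with litter as a block, which was added after the data were seen. It was 0 to 0 when any 1 library was left out. With litter as a block in edgeR, the pairing of the labels, the count was 0, the log2 fold change of Pkm was 0.63, and no call changed among the genes named. Paired within litters, the differences of the log2 ratios are -0.54, 1.02 and -0.75 for Hk2 to Hk1, Pfkp to Pfkl and Ldhb to Ldha, the same as unpaired, and 3 pairs cannot give an exact p below 0.25. Leaving out 1 library gave -0.87 to -0.045, 0.29 to 1.68 and -1.349 to -0.17.

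Log2 fold changes that changed sign were, with scaling by library size alone, 0.055 for Pgk1, 0.0073 for Ldha and 0.069 for Pklr, with upper-quartile scaling -0.085 for Eno1, and for Pgam2 -5.18 with litter as a block and -6.22 in DESeq2 with that block. Leaving out 1 library changed the sign of Hk1 (-0.070 to 0.66), Pfkl (-0.79 to 0.17), Aldoa (-0.12 to 0.35), Pgk1 (-0.44 to 0.072), Eno1 (-0.18 to 0.22), Hk3 (-0.36 to 2.87), Aldoc (-0.72 to 1.203), Pgam2 (-8.14 to 1.498) and Pklr (-0.96 to 0.31). Sign changes of Hk1, Aldoa and Eno1 on leaving out a library came from knockout 3. The cause was not tested. At this spread between samples, a change of the size seen in Pkm cannot be told from 0 after correction over all genes.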
